A study of Mus musculus with 12 samples.

Results

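Cholesterol and fatty acid synthesis was followed through 36 genes, taken by gene name from a table of 21834 genes, and each name was found on 1 row. By role they fell into a sterol branch of 19 genes, a fatty acid branch of 11 genes and 6 genes of regulation and transport. The cells were BV2, an immortalized mouse microglial line, carrying by lentiviral transduction and puromycin selection either a control short hairpin RNA (shCtrl) or a short hairpin RNA against Anxa2 (shAnxa2). Each line was left untreated (CTRL) or deprived of oxygen and glucose and then reoxygenated (OGD/R, groups named OGDR), and RNA of 3 replicates in each of the 4 groups was sequenced, giving 12 libraries. Per the labels, deprivation lasted 4 h in glucose-free medium at low oxygen and reoxygenation 12 h, whereas the study's methods for these cells state a longer reoxygenation. The knockdown rests on 1 hairpin in 1 stable line, and the sources used here do not say whether that line was a pool or a clone.

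Cholesterol is built from acetyl-CoA. The mevalonate part of the path makes the isoprenoid farnesyl diphosphate, which is also used for prenylation, squalene synthase and squalene epoxidase then commit it to sterols, and lanosterol is trimmed in several steps to cholesterol. Fatty acids are built from the same acetyl-CoA by acetyl-CoA carboxylase and fatty acid synthase, and are then lengthened by Elovl elongases and desaturated by Scd and Fads enzymes. Both branches are driven by the SREBP transcription factors (genes Srebf1 and Srebf2), which Scap escorts to the Golgi for cleavage and which the Insig proteins hold back in the endoplasmic reticulum when sterols are plentiful. SREBPs are known to act through sterol regulatory elements in promoters, together with the factors that bind the CCAAT box and the GC box. In microglia, these genes supply membrane lipid and bear on the handling of lipid taken up from myelin and debris.

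Libraries held 19521877 to 27288843 counts, with a median of 24531756, and replicates varied by 5.35% beyond counting error. Anxa2 followed the line given in the sample names. Its level in CPM, counts scaled to library size, was 171.7 ± 6.36 in untreated and 278.9 ± 24.3 in treated shCtrl cells (mean ± SD of 3 libraries), against 40.4 ± 4.86 in shAnxa2-CTRL and 19.6 ± 1.26 in shAnxa2-OGDR. For 6 of the 12 samples, however, a further label of cell type contradicts the line in the sample name, since it calls every treated sample a knockdown and every untreated one wild type. Across all genes, each group also lay nearest to the group that differed from it in both line and treatment, with a mean distance of 0.416 (root mean square log2 difference) between shCtrl-CTRL and shAnxa2-OGDR and of 0.453 between shCtrl-OGDR and shAnxa2-CTRL, whereas the other pairs of groups were 0.496 to 0.673 apart and replicates 0.252 to 0.28. After OGD/R, Anxa2 itself was higher in shCtrl cells (log2 fold change 0.70) and lower in shAnxa2 cells (-1.04). The labels do not settle whether the treatment names of 1 line were exchanged, which was not tested. Such an exchange would turn the direction of every OGD/R value of that line, and with it the reading of genes called in opposite directions, of the interactions and of the line comparisons. No label names a batch, and a batch shared by the libraries of 1 group and the effect of that group cannot be told apart. All 13 microglial markers passed the filter, but P2ry12 and Tmem119, which define microglia in tissue, were at 1.35 to 2.66 and at 1.41 to 10.7 CPM. Single microglial markers differed between the lines in both directions. C1qb was at 42.9 to 55.1 CPM in the shCtrl libraries and at 6.88 to 11.1 in the shAnxa2 libraries. C1qa was at 1.13 to 2.76 against 0.0489 to 0.679, whereas Tmem119 was at 1.41 to 4.85 against 5.2 to 10.7. The summed microglial markers were at 1807 to 1912 CPM in shCtrl-CTRL, 1654 to 1801 in shCtrl-OGDR, 1453 to 1544 in shAnxa2-CTRL and 1594 to 1618 in shAnxa2-OGDR. The part of these markers in the lipid gene results was not tested. Summed neuronal markers reached 1.33 CPM, astrocyte markers 0.382, fibroblast markers 0.376 and oligodendrocyte markers 6.61. In such bulk samples, fewer cells of a kind and less RNA per cell cannot be told apart.

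To place the genes beside their regulatory sequence, promoter windows from 250 bases before to 50 bases after the start were taken from RefSeq (mouse build GRCm38.p6), where 29 of the 36 genes had a window. The sterol regulatory element core TCACNCCAC was found on either strand in 1 of the 29, Hmgcs1, and in 1.44% of all 27025 genes with a window. Its E-box form TCACNTGA was found in 1 gene, Insig2, against 4.78% of all genes. CCAAT was found in 24 genes (41.1% of all genes), GGGCGG, the core of the GC box, in 23 genes (38.2%) and CACGTG in 6 genes (8.09%). These are matches of letters, not measured binding sites. The 250 bases before the start are printed for the gene with the TCACNCCAC match, for Mvd and Acss2, whose levels were raised after OGD/R in shCtrl cells and lowered in shAnxa2 cells, for Fasn, which moved the opposite way, and for Insig1, which differed between the lines at both treatments. Capitals mark TCACNCCAC and CCAAT or its reverse complement ATTGG, which overlap at 1 place in Fasn. The stretches are chr13:119690101-119690350 (plus strand) for Hmgcs1, chr8:122443423-122443672 (minus strand) for Mvd, chr2:155517793-155518042 (plus strand) for Acss2, chr11:120824548-120824797 (minus strand) for Fasn and chr5:28071162-28071411 (plus strand) for Insig1.
Hmgcs1: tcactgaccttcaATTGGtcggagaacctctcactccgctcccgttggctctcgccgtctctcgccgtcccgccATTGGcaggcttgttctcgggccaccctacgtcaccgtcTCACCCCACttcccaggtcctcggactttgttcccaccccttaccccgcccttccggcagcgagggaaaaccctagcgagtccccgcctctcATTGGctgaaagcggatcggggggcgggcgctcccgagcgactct
Mvd: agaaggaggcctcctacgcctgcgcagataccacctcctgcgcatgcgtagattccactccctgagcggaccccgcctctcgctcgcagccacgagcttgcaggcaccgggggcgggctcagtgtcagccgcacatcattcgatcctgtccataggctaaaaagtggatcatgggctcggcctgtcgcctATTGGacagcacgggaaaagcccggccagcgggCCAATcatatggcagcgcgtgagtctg
Acss2: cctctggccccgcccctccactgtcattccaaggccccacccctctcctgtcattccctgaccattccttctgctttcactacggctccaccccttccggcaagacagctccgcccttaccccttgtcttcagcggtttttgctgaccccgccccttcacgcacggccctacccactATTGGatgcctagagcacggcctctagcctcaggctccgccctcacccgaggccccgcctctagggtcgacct
Fasn: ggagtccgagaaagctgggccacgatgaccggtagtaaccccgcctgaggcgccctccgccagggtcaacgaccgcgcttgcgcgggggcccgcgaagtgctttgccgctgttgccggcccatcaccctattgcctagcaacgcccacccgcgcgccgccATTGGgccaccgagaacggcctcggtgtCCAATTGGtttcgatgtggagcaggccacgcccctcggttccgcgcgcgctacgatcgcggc
Insig1: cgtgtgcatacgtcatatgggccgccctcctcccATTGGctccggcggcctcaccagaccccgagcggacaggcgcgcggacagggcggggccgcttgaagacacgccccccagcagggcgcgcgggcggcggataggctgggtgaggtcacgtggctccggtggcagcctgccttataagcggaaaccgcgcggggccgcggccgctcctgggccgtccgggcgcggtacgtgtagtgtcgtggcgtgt

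Of the 36 genes, 34 passed the filter of 0.5 CPM in at least 3 libraries and entered the tests. The desaturase gene Scd1 had 39 counts over the 12 libraries and never exceeded 0.293 CPM, and Fads2, a further desaturase gene, had 12 counts and never exceeded 0.153 CPM. Low, though above the limit of 0.5 CPM in all 12 libraries, were Fdps (farnesyl diphosphate synthase), at 2.09 to 3.56 CPM, and Tm7sf2, at 2.91 to 8.33 CPM. Levels of different genes were compared as CPM per kilobase of exon. Scd2, the other stearoyl-CoA desaturase gene, was the highest on that scale in every group, at 257.2 to 322.2 CPM per kilobase, while Fasn was at 52.9 to 111.2, Fads1 at 74.3 to 81.4, Acly at 75.8 to 80.0 and Insig1 at 30.8 to 84.4, in an order that differed between groups. The lowest tested genes were Fdps at 0.545 to 0.754, Acss2 at 0.673 to 2.05 and Tm7sf2 at 0.713 to 1.76 CPM per kilobase. Reads of near-identical copies could be split by the counting, which touches Scd1 and Scd2. Reads in exons shared with another gene on the same strand cannot be told apart by strand. The strand used in counting is not given in the sources used here, so reads in exons shared across strands cannot be told apart either. In the GENCODE annotation of GRCm38, exons shared on the same strand make up 26.7% of the exonic bases of Fdps (with Gm43738) and 12.1% of those of Tm7sf2 (with Vps51). Exons shared with a gene on the opposite strand make up 18.3% of those of Fdft1 (with Ctsb), 13.2% of those of Scap and 12.1% of those of Hmgcs1. The values of these 5 genes are therefore less certain.

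**Figure D1:**
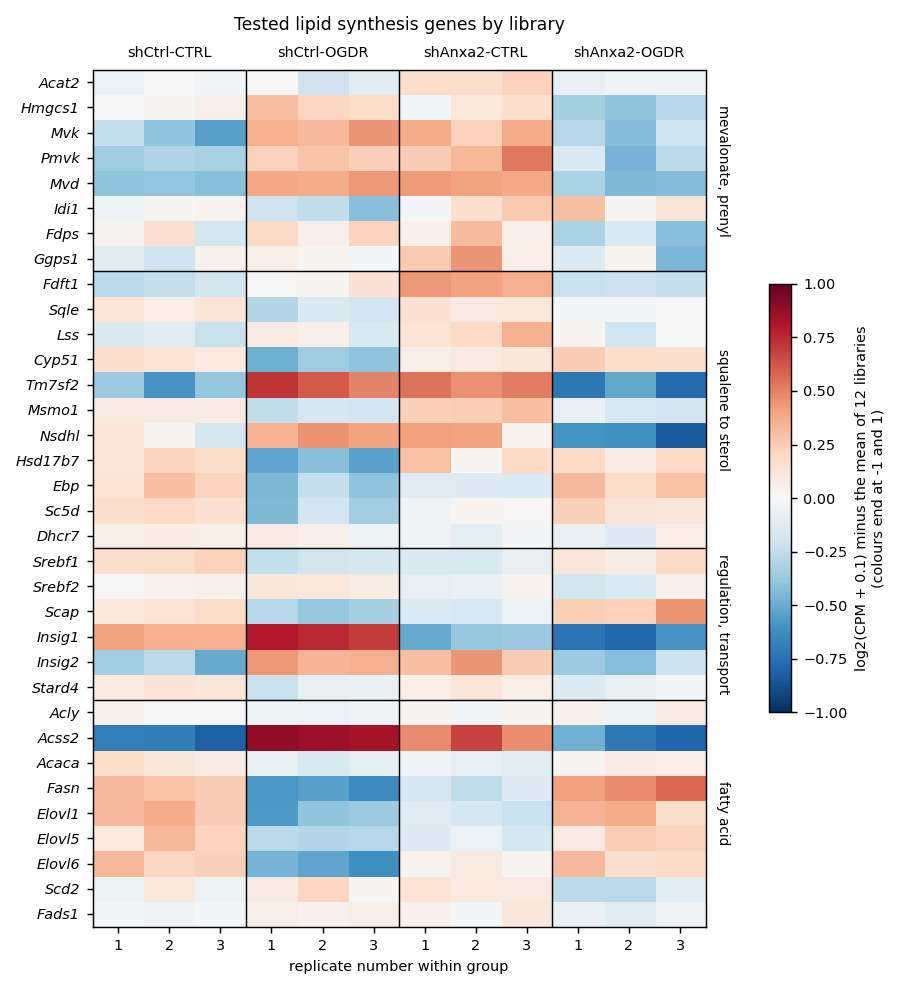
Heat map of the 34 tested lipid synthesis genes (rows, by role) in the 12 libraries (columns, by group), coloured by log2(CPM + 0.1) minus the gene's mean over the 12 libraries. Acss2, Tm7sf2 and Mvd are red in shCtrl-OGDR and shAnxa2-CTRL and blue in the other groups, Fasn and Elovl1 show the reverse, and Insig1 is blue in all 6 shAnxa2 libraries.

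The first comparison asked how lipid synthesis genes differed after OGD/R in cells with intact Anxa2. In shCtrl cells the genes did not move as 1 block. Among the 34 tested, OGD/R went with higher levels of 11 and lower levels of 15 when calls were made by adjusted p (edgeR's quasi-likelihood F test, p-values adjusted over all genes by the method of Benjamini and Hochberg, threshold 0.05), while 63.4% of the 11626 genes tested were called in the same comparison, 32.4% higher and 31.0% lower. In the sterol branch 8 genes were higher and 7 lower, with a median log2 fold change of 0.11, whereas in the fatty acid branch 1 was higher and 5 were lower, with a median of -0.23 and with 3 not called. The sterol median was 0.057 without shCtrl-CTRL replicate 2 and 0.063 without shCtrl-CTRL replicate 3. The median over all genes tested was 0.00452. Differences of single genes are given throughout as log2 fold changes ± SE. Changes of at least 2-fold were made by Acss2 and Tm7sf2, against 6.73% of all genes.

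Both directions occurred in the sterol branch. The mevalonate genes Hmgcs1, Mvk, Pmvk and Mvd were higher after OGD/R in shCtrl cells, Idi1 was lower, and Acat2, Fdps and Ggps1 were not called. Mvd (chr8:123160340-123170161, minus strand, in mm39 as for all gene positions here) encodes the decarboxylase that closes the mevalonate steps. It was at 51.3, 51.8 and 50.5 CPM in the shCtrl-CTRL libraries and at 88.6, 87.8 and 91.6 CPM in the shCtrl-OGDR libraries. The groups were far apart, and the log2 fold change was 0.80 ± 0.0504 (SE, adjusted p = 1.49e-12). Hmgcs1 (chr13:120151915-120169796, plus strand), the synthase that makes HMG-CoA, stood at 44.4, 44.9 and 46.1 CPM before and 54.9, 51.9 and 50.6 CPM after OGD/R. This smaller change, 0.22 ± 0.0596 on the log2 scale, also left the libraries without overlap (adjusted p = 0.00288). Mvk and Pmvk, the kinases between them, were higher by 0.77 ± 0.0789 and 0.58 ± 0.0794.

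From squalene on, 4 genes were higher in shCtrl cells after OGD/R and 6 lower. Higher were Fdft1 (squalene synthase), Lss (lanosterol synthase), Tm7sf2 and Nsdhl, and lower were Sqle, Cyp51, Msmo1, Hsd17b7, Ebp and Sc5d, while Dhcr7, the reductase of the last step, was not called in any of the 5 comparisons. Tm7sf2 (chr19:6112851-6118403, minus strand), a sterol reductase, was at 3.89, 3.3 and 3.82 CPM in shCtrl-CTRL and at 8.33, 7.75 and 7.12 CPM in shCtrl-OGDR. It gave the largest change of the branch, 1.08 ± 0.129 on the log2 scale (adjusted p = 9.71e-08), at a low level and with exons shared with Vps51. Nsdhl (chrX:71962163-72002120, plus strand), a sterol dehydrogenase, was at 13.5, 12.6 and 11 CPM before and 15.8, 16.9 and 16.4 CPM after OGD/R, again without overlap (log2 fold change 0.41 ± 0.106, adjusted p = 0.00165). Cyp51 (chr5:4131145-4154746, minus strand), the lanosterol demethylase, moved the opposite way, from 73.8, 72.5 and 70.6 CPM to 47.1, 51.5 and 50.0 CPM. The groups did not overlap (log2 fold change -0.55 ± 0.0522, adjusted p = 2.48e-09). Sqle (chr15:59186926-59203041, plus strand), squalene epoxidase, fell from 190.6, 183.5 and 191.1 CPM to 142.7, 158.3 and 153.5 CPM, a log2 fold change of -0.31 ± 0.0468 (adjusted p = 2.74e-06). The call for Lss was the least certain, at 0.16 ± 0.0688 with overlapping libraries (adjusted p = 0.0474), and it was lost without shAnxa2-CTRL replicate 2, without each shCtrl-CTRL replicate and without shCtrl-OGDR replicate 1 or 2, with adjusted p from 0.0516 (without shCtrl-CTRL replicate 2) to 0.214 (without shCtrl-OGDR replicate 1). It was also lost with DESeq2 (adjusted p = 0.0657), with the size factors of DESeq2 in edgeR (0.0541) and with the replicate number as a block (0.0577).

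**Figure D2:**
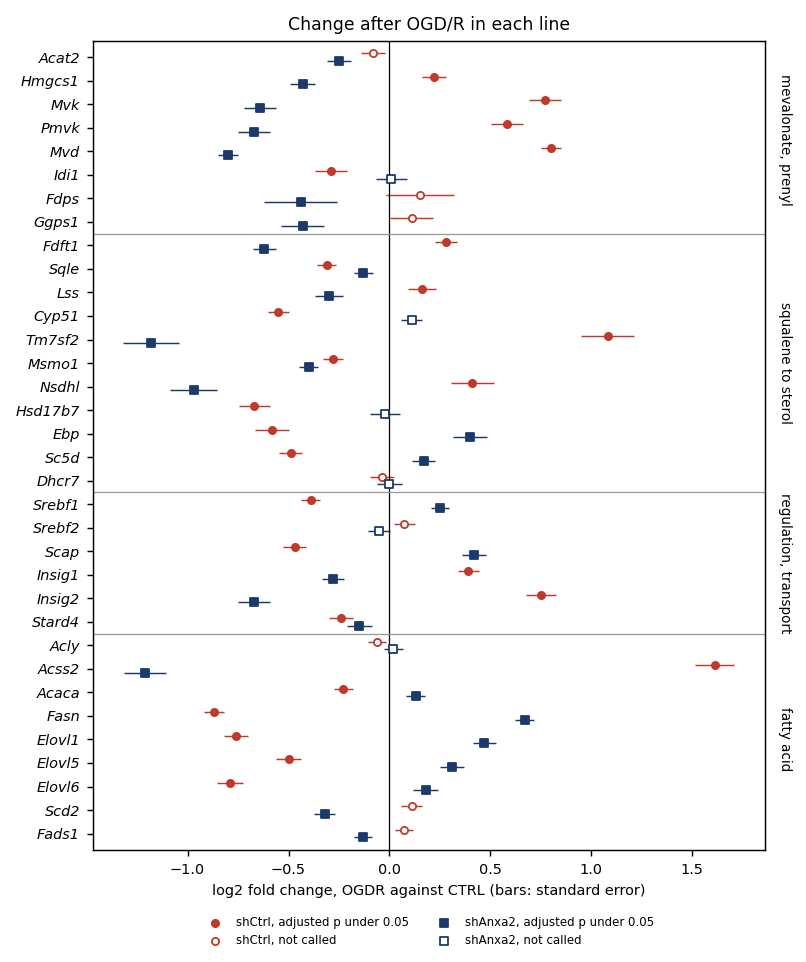
Log2 fold change after OGD/R (x axis, OGDR against CTRL, bars are standard errors) for each of the 34 tested genes (y axis, by role) in shCtrl cells (circles) and shAnxa2 cells (squares), with open symbols where the adjusted p was not under 0.05. Acss2 lies at 1.61 in shCtrl and -1.21 in shAnxa2, Fasn at -0.87 and 0.67, and Msmo1, Sqle and Stard4 lie below 0 in both lines.

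In the fatty acid branch Acss2 was the only gene called higher after OGD/R in shCtrl cells. It encodes the cytosolic and nuclear enzyme that makes acetyl-CoA from acetate and lies at chr2:155359868-155427644 on the plus strand. Acss2 was at 7.06, 7.04 and 6.43 CPM in shCtrl-CTRL and at 21.2, 20.8 and 20.4 CPM in shCtrl-OGDR. This was a log2 fold change of 1.61 ± 0.0982 (adjusted p = 9.63e-13), the largest among the 34 tested genes in this comparison. Fasn (chr11:120696672-120715373, minus strand), fatty acid synthase, fell from 1085, 1061 and 1039 CPM to 581.3, 595.5 and 559.9 CPM. All treated libraries lay far below all untreated ones, with a log2 fold change of -0.87 ± 0.0482 (adjusted p = 1.54e-13). Acaca (chr11:84020498-84292477, plus strand), the carboxylase that feeds Fasn with malonyl-CoA, was at 308.5, 293.2 and 287.2 CPM before and 259.9, 243.9 and 254.9 CPM after OGD/R, a smaller fall of -0.23 ± 0.0471 on the log2 scale (adjusted p = 0.000176). The elongase genes Elovl1, Elovl5 and Elovl6 were lower at -0.76, -0.50 and -0.79.

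Acly and Scd2 were steadier. Acly (chr11:100367179-100418826, minus strand), ATP citrate lyase, which makes cytosolic acetyl-CoA from citrate, was at 425.7, 411.9 and 414.9 CPM in shCtrl-CTRL and at 400.2, 397.0 and 404.0 CPM in shCtrl-OGDR. Although the libraries did not overlap, the log2 fold change of -0.06 ± 0.0452 was not called (adjusted p = 0.251), and Acly was not called in any other comparison either. Scd2 (chr19:44282113-44295303, plus strand) was at 1573, 1754 and 1576 CPM before and 1738, 1889 and 1655 CPM after OGD/R. These libraries overlapped, and the log2 fold change of 0.11 ± 0.0523 was not called (adjusted p = 0.0771). It became a call under 2 of the alternatives and without either of 2 libraries, with adjusted p of 0.0151 without shCtrl-CTRL replicate 2 and 0.0266 without shCtrl-OGDR replicate 3. Fads1 was not called, at 0.073 on the log2 scale.

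Among the regulators, the genes of the SREBP escort system were not moved together. Insig1 (chr5:28276361-28283660, plus strand) rose in shCtrl cells from 203.2, 197.7 and 197.9 CPM to 269.6, 261.6 and 251.9 CPM, without overlap (log2 fold change 0.39 ± 0.0514, adjusted p = 4.94e-07). Insig2, its relative, was higher by 0.75 ± 0.076, whereas Scap and Stard4, a sterol carrier, were lower at -0.47 ± 0.059 and -0.24 ± 0.0604. Srebf1 (chr11:60089915-60113407, minus strand), the factor linked mainly to fatty acid genes, fell from 310.8, 311.8 and 321.9 CPM to 233.4, 242.7 and 243.4 CPM. The groups were well separated (log2 fold change -0.39 ± 0.0466, adjusted p = 8.73e-08). Srebf2 (chr15:82031382-82089580, plus strand), the factor linked mainly to sterol genes, was at 404.9, 415.4 and 417.8 CPM before and 438.3, 437.2 and 427.9 CPM after OGD/R. The libraries did not overlap, but the log2 fold change of 0.07 ± 0.0537 was not called (adjusted p = 0.234).

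The same comparison in shAnxa2 cells asked how lipid synthesis genes differed after OGD/R when Anxa2 was depleted. Here 9 genes were higher and 19 lower, against 55.0% of all genes called, 28.2% higher and 26.8% lower. The sterol branch was mostly lower, with 13 genes lower, 2 higher (Ebp and Sc5d) and a median log2 fold change of -0.40. The fatty acid branch had 5 genes higher (Acaca, Fasn, Elovl1, Elovl5 and Elovl6), 3 lower (Acss2, Scd2 and Fads1) and a median of 0.13. Over all genes tested the median was 0.00436. Changes of at least 2-fold were again made by Acss2 and Tm7sf2, against 3.54% of all genes.

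All mevalonate and prenyl genes but Idi1 were lower in shAnxa2 cells after OGD/R. Mvd fell from 91.3, 89.9 and 88.2 CPM to 54.5, 50.0 and 50.3 CPM, so that the treated libraries of this line lay near the untreated libraries of the shCtrl line (log2 fold change -0.80 ± 0.0512, adjusted p = 8.56e-12). Hmgcs1 fell from 44.3, 48.0 and 50.0 CPM to 35.5, 33.9 and 36.5 CPM, without overlap (-0.43 ± 0.0622, adjusted p = 3.14e-06). Mvk and Pmvk were lower at -0.64 and -0.67. Fdps was called lower at -0.44 ± 0.181, but this call was lost without each of 3 libraries, with adjusted p of 0.154 without shAnxa2-CTRL replicate 2, 0.0868 without shAnxa2-OGDR replicate 1 and 0.123 without shAnxa2-OGDR replicate 3.

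From squalene on, Tm7sf2 fell from 7.38, 6.93 and 7.19 CPM to 3.01, 3.5 and 2.91 CPM in shAnxa2 cells (log2 fold change -1.18 ± 0.139, adjusted p = 1.45e-07). Nsdhl fell from 16.5, 16.4 and 12.7 CPM to 8.16, 8.11 and 6.89 CPM, and every treated library lay below every untreated one (-0.97 ± 0.116, adjusted p = 2.05e-07). Sqle was at 194.8, 186.0 and 188.6 CPM before and 173.0, 172.8 and 175.7 CPM after OGD/R. This fall of -0.13 ± 0.0469 on the log2 scale was close to the threshold (adjusted p = 0.0254) and was not called without each of 3 libraries, with adjusted p of 0.0854 without shAnxa2-CTRL replicate 1, 0.0577 without shAnxa2-OGDR replicate 1 and 0.063 without shAnxa2-OGDR replicate 2. Cyp51, at 69.0, 70.4 and 71.3 CPM before and 78.8, 74.6 and 74.2 CPM after OGD/R, had libraries that did not overlap but was not called (0.11 ± 0.0516, adjusted p = 0.0736). The sterol genes that were lower in both lines after OGD/R were Sqle and Msmo1, and outside the branch Stard4 did the same, so that 3 of the 34 tested genes were called in the same direction in both lines against 0.637% of all genes. The call of Stard4 in shAnxa2 cells (-0.15 ± 0.0614) was lost without shAnxa2-CTRL replicate 1 or 2 or shAnxa2-OGDR replicate 1 or 2, with adjusted p of 0.057 to 0.139, and that of Sc5d without shAnxa2-CTRL replicate 1 (adjusted p = 0.0512) or shAnxa2-OGDR replicate 1 (adjusted p = 0.0951). Called in opposite directions were 20 genes, 10 of them in the sterol branch and 6 in the fatty acid branch, against 44.4% of all genes.

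In the fatty acid branch of shAnxa2 cells, Acss2 fell from 15.9, 18.3 and 15.8 CPM to 8.16, 6.92 and 6.55 CPM (log2 fold change -1.21 ± 0.103, adjusted p = 8.36e-10). Fasn rose from 771.7, 726.8 and 793.0 CPM to 1155, 1203 and 1294 CPM, without overlap (0.67 ± 0.048, adjusted p = 5.1e-11). Acss2 and Fasn thus moved in opposite directions within each line and between the lines. Acaca was at 264.9, 257.9 and 250.8 CPM before and 274.7, 287.1 and 284.9 CPM after OGD/R. Its small rise of 0.13 ± 0.0473 (adjusted p = 0.0223) was not called under 4 of the alternatives, nor without shAnxa2-CTRL replicate 2, shAnxa2-CTRL replicate 3 or shAnxa2-OGDR replicate 2, with adjusted p of 0.0502, 0.0811 and 0.0681. Scd2 fell from 1793, 1741 and 1733 CPM to 1359, 1353 and 1504 CPM, so that all treated libraries were below all untreated ones (-0.32 ± 0.0524, adjusted p = 1.46e-05). Acly, at 419.2, 410.4 and 419.6 CPM before and 425.6, 401.6 and 439.2 CPM after OGD/R, was not called (0.02 ± 0.0453, adjusted p = 0.736). Elovl6 (0.18 ± 0.0625) was not called without shAnxa2-CTRL replicate 1, shAnxa2-CTRL replicate 3 or shAnxa2-OGDR replicate 1, with adjusted p of 0.0504, 0.0631 and 0.127, nor Fads1 (-0.13 ± 0.0457) without shAnxa2-CTRL replicate 3 or shAnxa2-OGDR replicate 2, with adjusted p of 0.119 and 0.0921.

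Of the 6 genes of regulation and transport, Insig1, Insig2, Scap and Srebf1 were called in opposite directions in the lines, Stard4 was lower in both and Srebf2 was called in neither. Insig1 fell in shAnxa2 cells from 109.0, 118.7 and 119.7 CPM to 92.9, 89.9 and 102.9 CPM (log2 fold change -0.28 ± 0.054, adjusted p = 9.6e-05), and Insig2 was lower at -0.67 ± 0.0777. Srebf1 rose from 249.0, 247.9 and 260.0 CPM to 299.0, 289.3 and 313.4 CPM, without overlap (0.25 ± 0.0467, adjusted p = 7.05e-05), and Scap was higher by 0.42 ± 0.0589. Srebf2 was at 383.3, 388.0 and 416.6 CPM before and 357.6, 369.5 and 420.4 CPM after OGD/R. Its libraries overlapped and it was not called (-0.05 ± 0.0539, adjusted p = 0.453), although it was called without shAnxa2-OGDR replicate 3 (adjusted p = 0.0444).

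**Figure D3:**
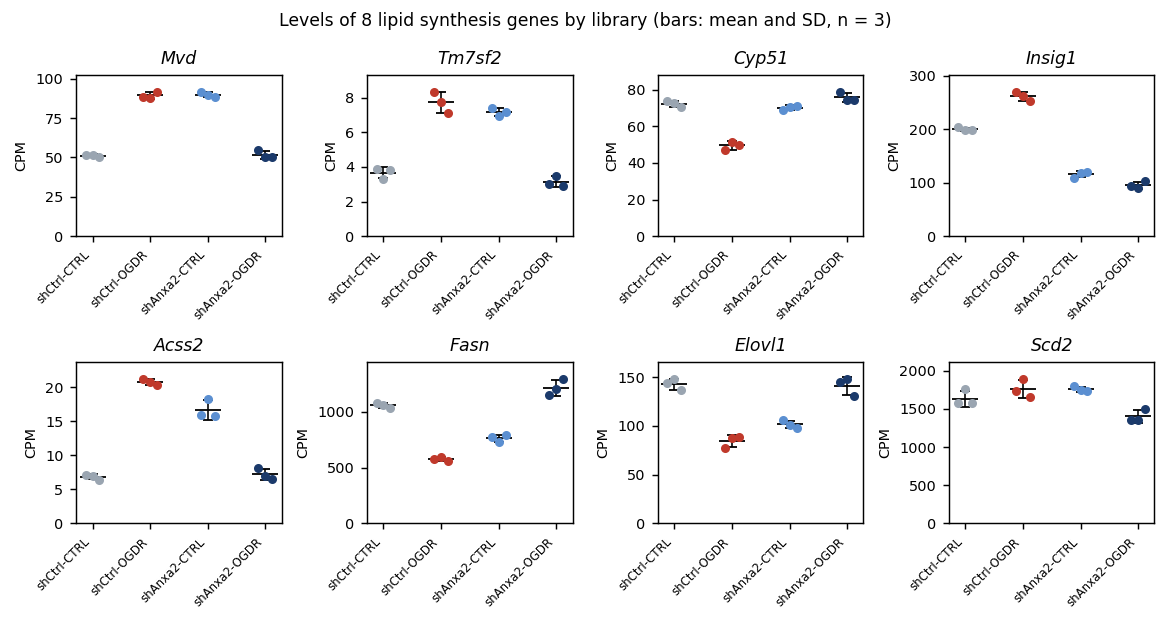
Level in CPM (y axis, from 0) of 8 genes in the 4 groups (x axis), with 1 point for each library and bars for the mean and SD of 3 libraries. Mvd, Tm7sf2 and Acss2 are high in shCtrl-OGDR and shAnxa2-CTRL, Fasn and Elovl1 are low there, Cyp51 is low in shCtrl-OGDR with group means of 70.2 to 75.9 elsewhere, and Insig1 is at 89.9 to 119.7 in the 6 shAnxa2 libraries and at 197.7 to 269.6 in the 6 shCtrl libraries.

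Whether the change after OGD/R differed between the lines was tested by the interaction, the log2 fold change in shAnxa2 cells minus that in shCtrl cells. It was called for 28 of the 34 tested genes, positive for 13 and negative for 15, against 70.0% of all genes, 34.9% positive and 35.1% negative. In the sterol branch 10 genes were negative and 6 positive, with a median of -0.45, and in the fatty acid branch 3 were negative and 5 positive, with a median of 0.36, while the median of all genes tested was -0.00612. The largest differences were those of Acss2 (-2.82 ± 0.142, adjusted p = 1.28e-14), Tm7sf2 (-2.26 ± 0.189, adjusted p = 1.41e-10) and Mvd (-1.60 ± 0.0718, adjusted p = 1.48e-15), and the largest positive one was that of Fasn (1.55 ± 0.0681, adjusted p = 1.1e-15). A difference of at least 2-fold was called for 9 genes, against 21.5% of all genes. Acat2, Msmo1, Dhcr7, Srebf2, Stard4 and Acly were not called. The interaction of Srebf2, -0.12 ± 0.0761, was called without shAnxa2-OGDR replicate 3 (adjusted p = 0.0124), and that of Acat2 without shCtrl-OGDR replicate 2 (adjusted p = 0.0296). The interaction of Idi1 was lost without shAnxa2-CTRL replicate 1, shAnxa2-OGDR replicate 1 or shCtrl-OGDR replicate 3, with adjusted p of 0.0719, 0.0788 and 0.0643, and that of Fdps without shAnxa2-CTRL replicate 2, shAnxa2-OGDR replicate 1 or 3, shCtrl-CTRL replicate 3 or shCtrl-OGDR replicate 1 or 3, with adjusted p of 0.0586 to 0.0921.

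Next, the lines were compared at each treatment, which asked what depletion of Anxa2 went with before and after OGD/R. These comparisons use the same libraries as those above, so the values are given side by side and no agreement between them is counted as a result. In untreated cells 12 genes were higher and 10 lower in shAnxa2 than in shCtrl, against 59.2% of all genes called, 29.5% higher and 29.7% lower. The sterol branch was mostly higher, with 10 genes higher, 2 lower (Ebp and Sc5d) and a median of 0.18. In the fatty acid branch Acss2 was higher, and Acaca, Fasn, Elovl1, Elovl5 and Elovl6 were lower, with a median of -0.20. The median of all genes tested was 0.000731. Only Acss2 differed by at least 2-fold, against 5.68% of all genes.

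By gene, the untreated lines differed most in Acss2 (1.29 ± 0.101, adjusted p = 1.16e-10), Tm7sf2 (0.97 ± 0.131, adjusted p = 9.37e-07) and Mvd (0.81 ± 0.0505, adjusted p = 1.92e-12), all higher in shAnxa2 and without overlap in the values above. Insig1 was lower in untreated shAnxa2 cells at -0.78 ± 0.0527 (adjusted p = 7.45e-12), Fasn at -0.47 ± 0.0479 (adjusted p = 9.2e-09), Srebf1 at -0.32 ± 0.0466 (adjusted p = 2.64e-06) and Acaca at -0.20 ± 0.0471 (adjusted p = 0.000784). For Nsdhl the libraries overlapped. Its call (0.30 ± 0.107, adjusted p = 0.021) was lost without shAnxa2-CTRL replicate 1, shAnxa2-CTRL replicate 2 or shCtrl-CTRL replicate 3, with adjusted p of 0.107, 0.099 and 0.13. Hmgcs1, Sqle, Cyp51, Srebf2 and Acly had overlapping libraries and were not called, with log2 fold changes of 0.073, 0.011, -0.041, -0.060 and -0.0039. Scd2, at 0.10 ± 0.0523, was not called (adjusted p = 0.092) but was called without shCtrl-CTRL replicate 2 (adjusted p = 0.0194). Without shAnxa2-CTRL replicate 2 the call of Ggps1 was lost (adjusted p = 0.0539), and without shAnxa2-CTRL replicate 1 Idi1 gained one (adjusted p = 0.0286).

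After OGD/R, 13 genes were higher and 14 lower in shAnxa2 than in shCtrl cells, against 67.9% of all genes called, 33.8% higher and 34.2% lower. In the sterol branch 6 genes were higher and 8 lower, with a median of -0.0769, and both directions again occurred along the path. The mevalonate and prenyl genes Hmgcs1, Mvk, Pmvk, Mvd and Fdps were lower and Idi1 was higher, and of the later genes Fdft1, Tm7sf2 and Nsdhl were lower and Sqle, Cyp51, Hsd17b7, Ebp and Sc5d higher. In the fatty acid branch Acaca, Fasn, Elovl1, Elovl5 and Elovl6 were higher, Acss2, Scd2 and Fads1 were lower and Acly was not called, with a median of 0.16 against -0.00335 for all genes tested. The median of the sterol branch moved with single libraries, from -0.124 without shCtrl-OGDR replicate 3 to -0.046 without shCtrl-OGDR replicate 1 and -0.033 without shAnxa2-OGDR replicate 2, so its distance from 0 is not firm. The calls for Fdps and Fads1 were also lost without single libraries, with adjusted p of 0.0918 for Fdps without shAnxa2-OGDR replicate 3 (0.0626 to 0.0669 without shAnxa2-OGDR replicate 1, shCtrl-OGDR replicate 1 or shCtrl-OGDR replicate 3) and of 0.0631 for Fads1 without shAnxa2-OGDR replicate 2, while Ggps1 gained a call without shAnxa2-OGDR replicate 2 (adjusted p = 0.02).

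Differences of at least 2-fold after OGD/R were called for 5 genes, against 10.1% of all genes. Acss2 was lower in shAnxa2 at -1.53 ± 0.10 (adjusted p = 1.95e-12), Insig1 at -1.46 ± 0.0535 (adjusted p = 7.13e-17), Tm7sf2 at -1.30 ± 0.136 (adjusted p = 8.93e-09) and Nsdhl at -1.08 ± 0.115 (adjusted p = 9.86e-09), while Fasn was higher by 1.07 ± 0.0484 (adjusted p = 2.51e-15). Mvd was lower at -0.79 ± 0.051 (adjusted p = 1.51e-12) and Hmgcs1 at -0.57 ± 0.0616 (adjusted p = 1.31e-08). Cyp51 was higher by 0.61 ± 0.0526 (adjusted p = 2.5e-10), Sqle by 0.20 ± 0.0471 (adjusted p = 0.000671), Srebf1 by 0.33 ± 0.0467 (adjusted p = 1.3e-06) and Acaca by 0.16 ± 0.0472 (adjusted p = 0.00482). Scd2 was lower at -0.33 ± 0.0524 (adjusted p = 6.86e-06) and Srebf2 at -0.18 ± 0.0539 (adjusted p = 0.00426).

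**Figure D4:**
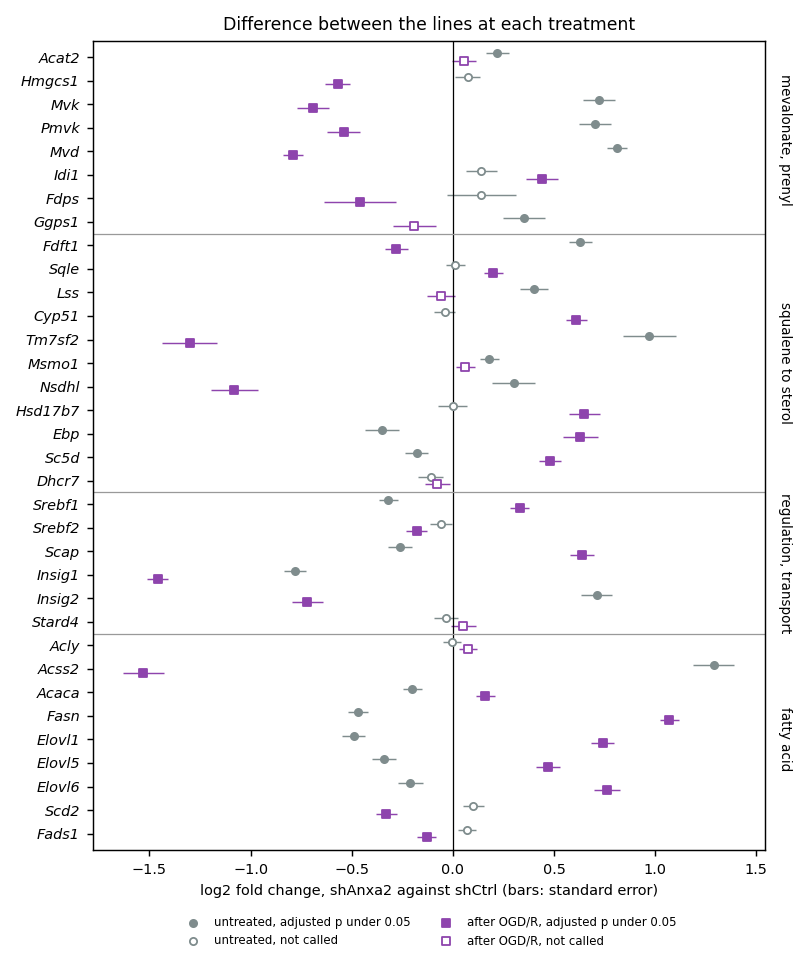
Log2 fold change of shAnxa2 against shCtrl (x axis, bars are standard errors) for each of the 34 tested genes (y axis, by role) in untreated cells (circles) and after OGD/R (squares), with open symbols where the adjusted p was not under 0.05. Insig1 is the gene called below 0 at both treatments, at -0.78 and -1.46, whereas Acss2 lies at 1.29 and -1.53 and Fasn at -0.47 and 1.07.

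Insig1 was the only gene of the 34 tested that was called in the same direction in both line comparisons, against 10.6% of all genes, while 17 were called in opposite directions, against 33.5%. Its 6 shAnxa2 libraries lay between 89.9 and 119.7 CPM and its 6 shCtrl libraries between 197.7 and 269.6 CPM. This gene of the retention machinery thus had lower transcript levels in shAnxa2 cells with and without OGD/R, with log2 fold changes of -0.78 and -1.46 between the lines beside 0.39 and -0.28 after OGD/R within them. Its relative Insig2 behaved differently, at 0.71 ± 0.0765 in untreated cells and -0.72 ± 0.0772 after OGD/R. In the wider pathway a shared direction was not limited to Insig1. Among the other pathway genes described below, Pgrmc1, Npc1, Mylip, Abca1, Acsl1 and Acsl3 were called lower in shAnxa2 at both treatments. Me1 was called higher at both. Pgrmc1 was at -0.88 ± 0.0762 in untreated cells and -0.31 ± 0.076 after OGD/R.

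The sterol and fatty acid branches were then set side by side as the mean of the centred log2(CPM + 0.1) of their tested genes in each library, a description with no test since the genes were chosen with results of these data known. The sterol branch was highest in shAnxa2-CTRL, at 0.19, 0.205 and 0.204, and lowest in shAnxa2-OGDR, at -0.104, -0.165 and -0.168. In shCtrl it was at -0.052, -0.051 and -0.075 without and at 0.005, 0.025 and -0.014 with OGD/R. The groups did not overlap, and the span from lowest to highest lay within the shAnxa2 line. The fatty acid branch was lowest in shCtrl-OGDR, at -0.107, -0.095 and -0.123, and stood at 0.062, 0.074 and 0.02 in shCtrl-CTRL, at 0.029, 0.029 and 0.006 in shAnxa2-CTRL and at 0.046, 0.019 and 0.041 in shAnxa2-OGDR, where these last 3 groups overlapped. The mean hides opposite genes in each branch, since Acss2 went against Fasn and the elongases in every comparison, and Mvd, Tm7sf2 and Nsdhl went against Ebp and Sc5d.

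**Figure D5:**
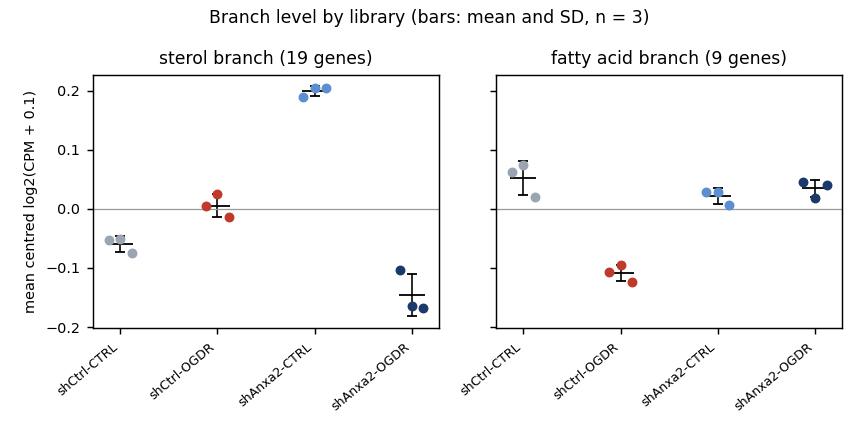
Mean over the tested genes of each branch of log2(CPM + 0.1), centred per gene on its 12 libraries (y axis), in the 4 groups (x axis), with 1 point for each library and bars for the mean and SD of 3 libraries. The sterol branch runs from -0.146 in shAnxa2-OGDR to 0.199 in shAnxa2-CTRL, and the fatty acid branch is lowest in shCtrl-OGDR at -0.109.

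Other genes of the pathway outside the 36 were counted from a list of 44, of which 39 were tested. After OGD/R 13 were higher and 16 lower in shCtrl cells (74.4% called, against 63.4% of all genes) and 15 higher and 10 lower in shAnxa2 cells (64.1% against 55.0%). Between the lines 11 were higher and 18 lower in shAnxa2 when untreated (74.4% against 59.2%), and 15 higher and 16 lower after OGD/R (79.5% against 67.9%). The interaction was positive for 17 and negative for 14 (79.5% against 70.0%). By their medians, the 6 tested sterol genes of this list ran against the sterol branch. After OGD/R these medians were -0.48 in shCtrl (branch 0.11) and 0.20 in shAnxa2 (branch -0.40). Between the lines they were -0.23 untreated (branch 0.18) and 0.42 after OGD/R (branch -0.0769). Their interaction median was 0.78 (branch -0.45), with 5 positive and 1 negative. The branch directions thus describe its 19 chosen genes and not all sterol genes. For the 18 other tested fatty acid genes, the medians after OGD/R were -0.0193 in shCtrl (branch -0.23) and -0.0406 in shAnxa2 (branch 0.13). Between the lines these medians were 0.0976 untreated (branch -0.20) and -0.0167 after OGD/R (branch 0.16). Their interaction median was 0.027 (branch 0.36). The fatty acid directions likewise describe the chosen genes of that branch and not all fatty acid genes. Among 6 tested sterol genes, Lbr, a sterol reductase of the nuclear envelope, was higher in shAnxa2 cells after OGD/R by 0.78 ± 0.0504 than in shCtrl cells, and Pdss1, of ubiquinone side chain synthesis, was lower after OGD/R in shCtrl at -0.83 ± 0.0826. Of 9 genes of sterol uptake, storage and export, Nr1h3, the sterol-sensing receptor LXR alpha, had an interaction of 1.32 ± 0.131. In that list the interaction was positive for 2 genes and negative for 4, with a median of -0.11. Nr1h2, another gene of the list, was at -0.52 ± 0.0819. Of 18 tested fatty acid genes, Lpin1, a phosphatidate phosphatase, was lower in shAnxa2 than in shCtrl after OGD/R at -1.67 ± 0.0825. Like Acss2, Lpin1 was higher after OGD/R within shCtrl cells at 1.03 and lower within shAnxa2 cells at -1.30. Hacd4, Slc25a1, Tecr, Gpam and Acsl5 were also called higher in shCtrl and lower in shAnxa2 after OGD/R. Acacb, Elovl3, Hsd17b12, Hacd2 and Hacd3 were called in the reverse directions.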

How the data were processed

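BV2 libraries were grouped by the line and treatment in the sample names. The authors deposited whole-number counts of reads per gene, without normalization, beside 12 columns of the same counts divided by size factors, which were not used. The submitters' processing notes name HISAT2 2.0.4 and mm39, whereas the study's methods, written for hippocampi, name other tools. Counts of 21834 genes were analysed in edgeR 4.0.16 (R 4.3.3) with TMM scaling, a filter of 0.5 CPM in at least 3 libraries (11626 genes) and 1 quasi-likelihood model over the 12 libraries, with p-values adjusted over all 11626 genes. Genes were called at an adjusted p under 0.05. The standard error was the log2 fold change divided by the square root of F. CPM uses library totals times TMM factors, and CPM per kilobase divides by the exonic length in the GENCODE annotation of GRCm38, so isoform use can move it. Replicates are described as biological by the study. With 3.89 to 12.66 for the chi-square per gene of a replicate pair, none was a repeat of another. Alternatives were DESeq2 1.42.0, limma 3.58.1 with voom, other scalings and filters, the replicate number as a block, fits of the 2 groups compared and leaving out each library. The members and lists were chosen with earlier results of these data known. Values by library are given for the 3 called genes with the largest change in each of the 5 contrasts and for 11 landmark genes except Scd1. For Scd1, the counts over the 12 libraries and the highest CPM are given. The steps were tested on simulated counts. Python 3.11.15, pandas 2.3.3, numpy 2.4.6 and matplotlib 3.10.9 were used for tables and plots.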

Additional observations from a re-analysis of the deposited data

Results flagged for a closer look

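The change after OGD/R differed between the lines for 28 of the 34 tested genes by the interaction in edgeR's quasi-likelihood model (adjusted p under 0.05), against 70.0% of all genes. Values are the log2 fold change in shAnxa2 minus that in shCtrl. In the mevalonate and prenyl group they were -0.65 for Hmgcs1, -1.41 for Mvk, -1.25 for Pmvk, -1.60 for Mvd, 0.30 for Idi1, -0.60 for Fdps and -0.55 for Ggps1. From squalene on they were -0.91 for Fdft1, 0.19 for Sqle, -0.45 for Lss, 0.66 for Cyp51, -2.26 for Tm7sf2, -1.38 for Nsdhl, 0.65 for Hsd17b7, 0.98 for Ebp and 0.66 for Sc5d. Among regulators they were 0.64 for Srebf1, 0.89 for Scap, -0.67 for Insig1 and -1.42 for Insig2. In the fatty acid branch they were -2.82 for Acss2, 0.36 for Acaca, 1.55 for Fasn, 1.23 for Elovl1, 0.81 for Elovl5, 0.97 for Elovl6, -0.43 for Scd2 and -0.20 for Fads1. Dixon's test for an outlying library was not applied to groups of 3.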

How the results depend on the processing

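No called gene and no branch median changed its direction under the alternatives that were run or without single libraries. Values close to 0 that were not called changed sign 20 times under alternatives and 23 times without single libraries, and the sterol level of shCtrl-OGDR went from 0.005 to -0.001 with a pseudocount of 1. In no contrast did the number of called genes move by more than 1.5 times, and the lowest count was 6 genes higher after OGD/R in shAnxa2 cells with upper quartile scaling. The branch medians (log2) moved with scaling. With upper quartile scaling, the fatty acid median was -0.202 after OGD/R in shCtrl, 0.086 after OGD/R in shAnxa2, -0.162 between untreated lines, 0.125 between treated lines and 0.287 for the interaction, and the sterol median was -0.447, 0.223, -0.111 and -0.526 in the last 4 of these. With library totals only, the fatty acid median was 0.103 after OGD/R in shAnxa2, 0.131 between treated lines and 0.329 for the interaction, and the sterol median -0.105 and -0.485 in the last pair. Without the filter, the medians after OGD/R in shAnxa2 were -0.433 (sterol) and 0.10 (fatty acid). The cause was not tested. All of these stayed on the same side of 0. Of 1496 single gene values under alternatives, 1134 kept a call, 17 lost it, 11 gained one and 334 stayed not called. Of 2040 values without single libraries, these were 1528, 44, 8 and 460.

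Leaving out 1 library at a time gave, for OGD/R in shCtrl, 10 to 12 genes higher and 15 lower, for OGD/R in shAnxa2, 7 to 9 higher and 16 to 19 lower, 10 to 13 higher and 10 lower between untreated lines, 13 higher and 13 to 14 lower between treated lines, and 12 to 13 positive and 14 to 16 negative interactions. In the same order of contrasts, the sterol median ran from 0.057 to 0.12, -0.428 to -0.322, 0.178 to 0.223, -0.124 to -0.033 and -0.521 to -0.387, and the fatty acid median from -0.253 to -0.201, 0.111 to 0.15, -0.225 to -0.174, 0.133 to 0.181 and 0.333 to 0.386. Anxa2 ran from 0.658 to 0.768, -1.13 to -0.969, -2.157 to -1.996, -3.895 to -3.777 and -1.829 to -1.669.

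The replicate numbers did not pair the libraries. Deviations of same-numbered libraries correlated at -0.051 to 0.135 over 18 pairs, other pairs at -0.099 to 0.082, and 6 of 12 libraries correlated best with their own number. With the replicate number as a block, 1 gene call was lost, that of Lss after OGD/R in shCtrl (adjusted p = 0.0577). At this depth the genes under the filter, Scd1 and Fads2, could not be compared between groups.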
